A study of Mus musculus with 9 samples.

Results

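The enzymes that carry sterol synthesis from squalene epoxide to cholesterol were followed in mouse embryonic stem cells in which the Polycomb protein Suz12 was removed and then allowed to return. The 9 genes described are Lss, Cyp51, Tm7sf2, Msmo1, Nsdhl, Hsd17b7, Ebp, Sc5d and Dhcr7, chosen by their place in the pathway and matched by symbol in a table of 48440 genes. All 9 were found, and all 9 passed the filter on low counts that left 20838 genes for testing. Polyadenylated RNA was sequenced from J1 cells whose genotype is labelled Suz12-AID, an auxin-inducible degron that leads to loss of the tagged protein when auxin, a plant hormone, is added. The 9 libraries form 3 groups of 3 biological replicates. Mock cells are the controls, Auxin cells received 50 µM auxin for 96 h, and Reintroduction cells followed a washout of 4.5 h. All groups share the degron and a gelatin-coated, serum-containing culture with leukemia inhibitory factor and the inhibitors PD0325901 and CHIR99021. No auxin-treated cells without the degron were among the groups, so an effect of auxin and an effect of Suz12 loss cannot be told apart. Return of Suz12, removal of auxin and handling of the cells at washout cannot be told apart either. The degron acts on the protein, so RNA levels do not check the depletion.

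Cholesterol is built from acetyl-CoA through mevalonate and squalene, and the first sterol, lanosterol, is then trimmed and rearranged by membrane enzymes of the endoplasmic reticulum. Lanosterol loses methyl groups at the carbons called C14 and C4, and the double bonds of its rings are moved, added and reduced until cholesterol is reached. The genes of this pathway are known targets of the SREBP transcription factors, which are released from the endoplasmic reticulum when its cholesterol is low and which bind sterol regulatory elements, often next to sites for the factor NF-Y. Inherited loss of several of these enzymes disturbs development, as in Smith-Lemli-Opitz syndrome, which follows loss of DHCR7.

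The libraries held between 44341283 and 113931419 counts, with the mates of a pair counted singly, and the 9 enzymes had between 207 and 23396 counts in a library. Log2 CPM (counts scaled to a common library total) correlated between libraries at 0.989 to 0.995 within groups and at 0.936 to 0.977 between groups (Pearson's r across genes). All 7 stem cell markers were at 327 CPM or more in every library, Pou5f1 at 551 to 911. They summed to 4730 to 4890 CPM in Mock, 7140 to 7470 in Auxin and 5120 to 5200 in Reintroduction. Pou5f1 alone of the 7 had a lower mean in Auxin than in Mock (583 against 844 CPM). Of 6 fibroblast markers, 5 stayed under 1 CPM in every library. The exception was Thy1. The fibroblast list summed to 16.6 to 18.1 CPM in Mock, 41.9 to 49.0 in Auxin and 37.9 to 39.2 in Reintroduction. The 4 primitive endoderm markers summed to 2.37 to 2.86, 9.82 to 10.1 and 4.51 to 4.67 CPM in the same order, with 2 of them under 1 CPM in every library. The 4 trophoblast markers, of which Elf5 and Krt7 were under 1 CPM in every library, summed to 26.2 to 27.5, 89.1 to 96.3 and 44.0 to 49.1 CPM. Nearly all of that sum was Tfap2c, with means of 27.2, 86.6 and 45.0 CPM. Cdx2 went the other way in Auxin, with means of 1.70, 0.08 and 0.78 CPM. The 6 mesoderm and neurectoderm markers summed to 42.4 to 44.2, 27.9 to 29.9 and 69.4 to 72.9 CPM, and 1 of them, Neurog2, had no counts in any library. Most of that sum was Eomes, with means of 35.4, 25.6 and 66.9 CPM. T had means of 9.82, 0.25 and 1.36 CPM and so stayed below Mock after washout. Marker sums are scaled by total counts, and all other CPM values by TMM-scaled totals. Values also followed exon length differently: per doubling of length they changed by -0.25 to -0.17 log2 units in Mock, 0.01 to 0.15 in Auxin and 0.08 to 0.10 in Reintroduction. The part of these differences in the results below was not tested, except where values with the length trend removed are given.

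Stretches upstream of the transcription start are shown for 5 of the enzymes, because of directions that the 9 shared, as given below. All 9 were called lower in Auxin than in Mock and higher in Reintroduction than in Auxin, beside 34.8% and 25.5% of all genes tested. They split in Reintroduction against Mock, and the fall of Hsd17b7 in Auxin depended on the scaling. A shared cause was not tested. All 9 symbols matched the RefSeq promoter table (GRCm38.p6, the build called mm10 in the count files), Dhcr7 with 3 starts, giving 11 windows of 250 bases before to 50 bases after a start. In these windows 4 motifs were searched on both strands. The strict sterol regulatory element core TCACNCCAC was in 0 of 11 windows, against 1.2% of all 32851 windows. The relaxed core TCACNNCA, which contains every match of the strict one, was in 7 of 11 windows, against 13.8% of all windows. The CCAAT box (CCAAT), the NF-Y site, was in 9 of 11 windows against 37.4%, and the GC box (GGGCGG) was in 10 of 11 against 35.7%. Counted by gene, the relaxed core was found for 6 of the 9 enzymes, against 15.7% of all 27025 genes. Both boxes were found for 9 of 9, against 41.1% of all genes for the CCAAT box and 38.2% for the GC box. The windows of all genes were not matched to those of the enzymes for GC content or expression. A match is a description of letters in the window and not of binding. The printed stretches run from 5′ to 3′, start 200 bases before the start site and stop before the first exon of the gene in GENCODE M21. Matches to the relaxed core and to CCAAT on either strand are in capitals. Cyp51, Hsd17b7 and Sc5d hold the relaxed core, and Ebp and Lss hold a CCAAT match without it.
Cyp51, chr5:4104747-4104897, minus strand: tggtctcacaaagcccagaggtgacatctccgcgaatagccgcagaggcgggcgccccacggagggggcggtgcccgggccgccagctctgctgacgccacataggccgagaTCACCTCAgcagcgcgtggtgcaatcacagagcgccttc
Hsd17b7, chr1:169969242-169969405, minus strand: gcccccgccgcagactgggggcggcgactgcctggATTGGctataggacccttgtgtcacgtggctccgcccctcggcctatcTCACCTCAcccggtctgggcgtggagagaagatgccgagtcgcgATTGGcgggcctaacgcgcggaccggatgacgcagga
Sc5d, chr9:42264301-42264500, minus strand: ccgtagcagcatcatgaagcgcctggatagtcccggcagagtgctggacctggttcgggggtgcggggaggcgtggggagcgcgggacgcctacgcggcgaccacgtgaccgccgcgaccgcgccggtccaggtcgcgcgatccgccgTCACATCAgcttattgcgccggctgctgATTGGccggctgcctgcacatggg
Ebp, chrX:8193513-8193712, minus strand: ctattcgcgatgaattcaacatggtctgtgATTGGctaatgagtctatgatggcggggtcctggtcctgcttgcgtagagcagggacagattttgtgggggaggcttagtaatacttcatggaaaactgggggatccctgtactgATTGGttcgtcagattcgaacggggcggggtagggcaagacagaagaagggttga
Lss, chr10:76531405-76531587, plus strand: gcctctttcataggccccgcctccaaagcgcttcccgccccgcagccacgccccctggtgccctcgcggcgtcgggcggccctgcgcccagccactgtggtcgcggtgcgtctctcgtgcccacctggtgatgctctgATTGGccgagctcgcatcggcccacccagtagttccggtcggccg

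In Cyp51 the relaxed core began 88 bases before the start. In Hsd17b7 it has the same letters, TCACCTCA, and began 117 bases before the start. In Sc5d it reads TCACATCA and began 52 bases before the start. Msmo1 held 2 matches, one of which overlaps a CCAAT match, Nsdhl held 1, and Dhcr7 held 1 at each of 2 starts. Lss, Tm7sf2 and Ebp held none in their windows.

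Depletion of Suz12 was addressed by setting Auxin beside Mock, and transcripts of all 9 enzymes were lower in Auxin, except that Hsd17b7 was not lower under total-count scaling. Dhcr7, which acts at the end of one branch, fell 4.45-fold and Tm7sf2 fell 3.61-fold. At the other end of the range, Sc5d fell 1.24-fold and Hsd17b7 1.11-fold. The median log2 fold change of the 9 was -0.99, beside 0.05 for all genes tested. All 9 were called lower (edgeR quasi-likelihood, adjusted p under 0.05), beside 34.8% of all genes tested. A fall of at least 2-fold was called for 4 of the 9, namely Cyp51, Tm7sf2, Nsdhl and Dhcr7, beside 12.0% of all genes. In bulk RNA, fewer cells of a type and less RNA per cell cannot be told apart. Scaling by total counts moved the median of all genes from 0.05 to 0.26 and the calls from 7996 higher and 7261 lower to 9748 higher and 5664 lower. Directions are given under scaling by trimmed means (TMM).

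The response to washout was addressed by setting Reintroduction beside Auxin, and all 9 enzymes rose. Cyp51 rose 3.69-fold, Dhcr7 3.65-fold and Msmo1 3.14-fold, and the smallest rises were those of Sc5d (1.80-fold) and Ebp (1.39-fold). The median log2 fold change was 1.29, beside 0.003 for all genes tested. All 9 were called higher, beside 25.5% of all genes. A rise of at least 2-fold was called for 7 of the 9, all but Ebp and Sc5d, beside 4.16% of all genes. This comparison shares the Auxin libraries with the one before, so the opposite directions are not independent of each other.

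How far the cells were from their starting level was addressed by setting Reintroduction beside Mock, and there the enzymes split. Lss, Cyp51, Msmo1, Hsd17b7 and Sc5d stood above Mock, Hsd17b7 by 2.15-fold. Tm7sf2, Ebp and Dhcr7 were still below Mock, at 59.1%, 69.9% and 82.2% of its level. Nsdhl did not pass the test. Thus 5 were called higher, beside 34.7% of all genes tested, and 3 lower, beside 33.4%, so that calls in both directions were common among all genes. The median log2 fold change of the 9 was 0.54, beside 0.026 for all genes. It was 0.16 with the trend of exon length removed and 0.14 with length and GC trends removed.

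**Figure D1:**
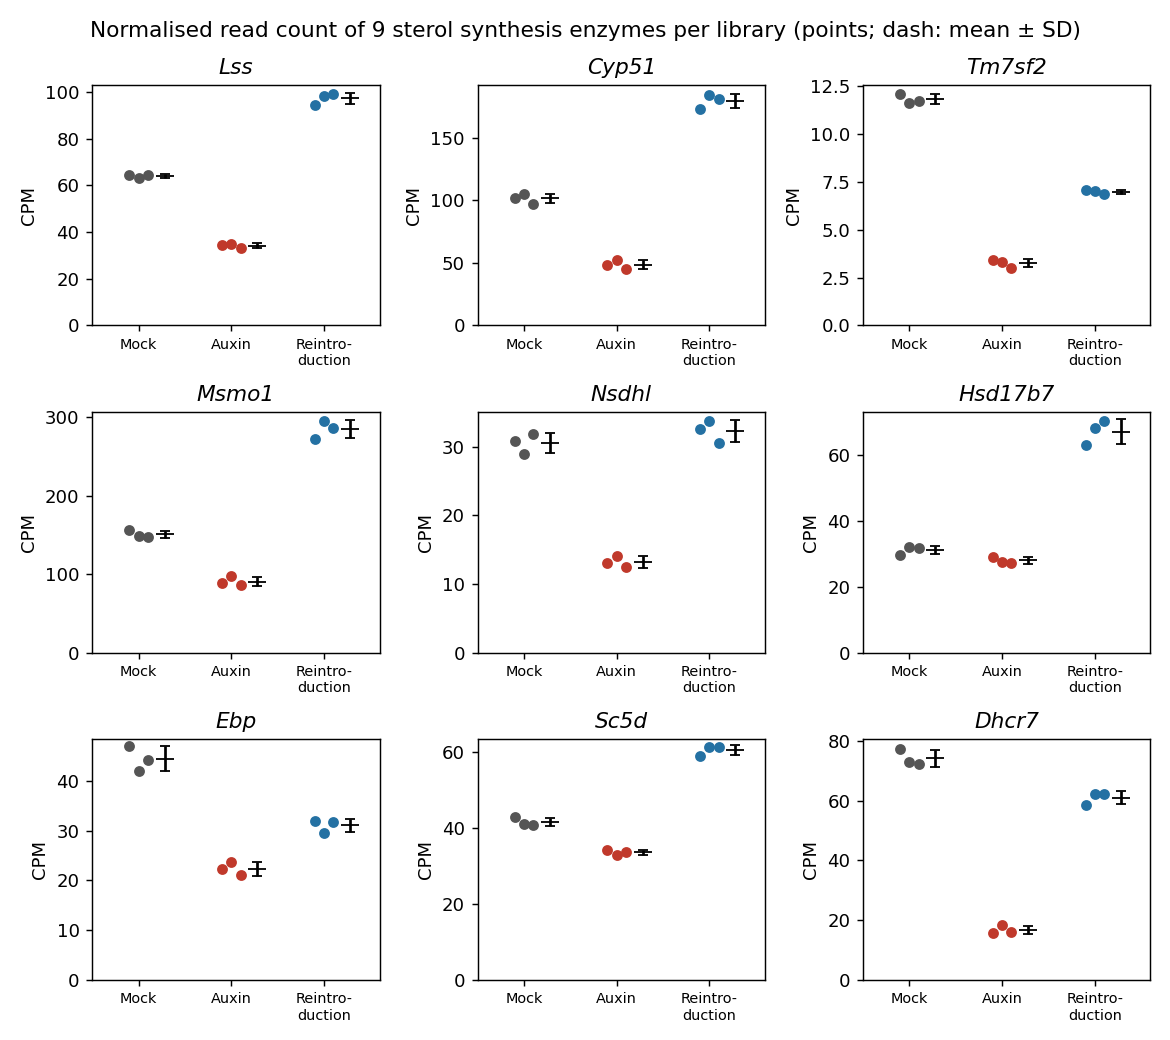
Normalised read count (CPM, y axis starting at 0) of each enzyme in the 3 Mock, 3 Auxin and 3 Reintroduction libraries, 1 point per library, with the group mean ± SD beside the points. In each panel the Auxin points are the lowest, and the Reintroduction points lie above Mock for Lss, Cyp51, Msmo1, Hsd17b7 and Sc5d and below it for Tm7sf2, Ebp and Dhcr7. The share of all genes tested that separate in these ways is not given.

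**Figure D2:**
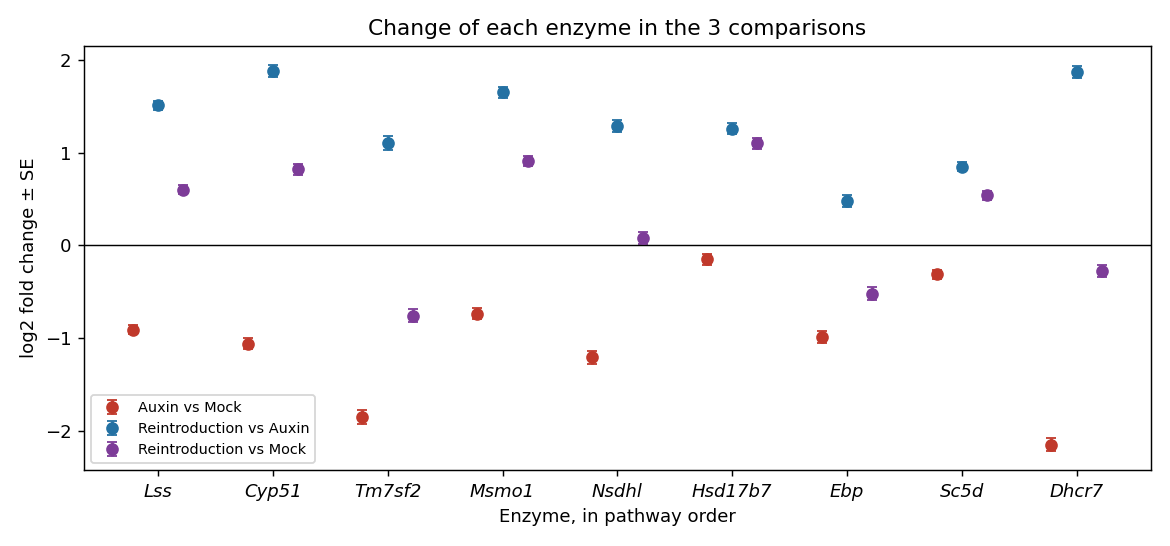
Log2 fold change ± SE of each enzyme (x axis, in pathway order) in the 3 comparisons. Auxin against Mock lies below 0 for all 9 under TMM scaling (-2.15 to -0.15, Hsd17b7 turning to 0.05 under total counts) and Reintroduction against Auxin above 0 (0.48 to 1.88), while Reintroduction against Mock runs from -0.76 to 1.10.

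The first enzymes close the ring and remove the C14 methyl group. Lss, lanosterol synthase, folds squalene epoxide into lanosterol (ENSMUSG00000033105.12, mm10 chromosome 10, 76531588 to 76557138). It had 64.5, 63.1 and 64.5 CPM in Mock replicates 1 to 3. Auxin had 34.5, 34.9 and 33.1 CPM and Reintroduction 94.4, 98.3 and 99.0. The 3 groups did not overlap, with Auxin lowest and Reintroduction highest. Here and for the genes below, the share of all genes tested without overlap is not given. The log2 fold change was -0.91 in Auxin against Mock (SE 0.048, adjusted p = 1.97e-08), 1.51 in Reintroduction against Auxin (SE 0.049, adjusted p = 2.63e-09) and 0.60 in Reintroduction against Mock (SE 0.047, adjusted p = 9.42e-07). The last of these ended when the exon length trend was removed (0.04, adjusted p = 0.661). With length and GC trends removed together it was 0.14 (adjusted p = 0.0331), and the fall in Auxin was -1.45 and -1.42 in those fits. Lss has 10787 exon bases in the count files, the most of the 9. The trend fits used that length, while its principal transcript has 4667 bases. Of the exon bases, 3.53% are shared with the antisense gene 4930483K19Rik, from which Lss reads cannot be told apart without strand.

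Cyp51 encodes lanosterol demethylase, the cytochrome P450 that removes the C14 methyl group (ENSMUSG00000001467.5, chromosome 5, 4081145 to 4104746). Its values were 102, 105 and 97.3 CPM in Mock. The Auxin libraries had 48.4, 52.3 and 45.2 CPM and those of Reintroduction 173, 184 and 181. No Auxin library reached the lowest Mock library, and no Mock library reached the lowest Reintroduction library. The log2 fold changes were -1.06 (SE 0.063, adjusted p = 4.41e-08) in Auxin against Mock, 1.88 (SE 0.064, adjusted p = 3.70e-09) in Reintroduction against Auxin, the largest rise of the 9, and 0.82 (SE 0.062, adjusted p = 7.00e-07) in Reintroduction against Mock. Of its exon bases, 3.76% are shared with Akap9 on the opposite strand.

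Tm7sf2 is a C14 sterol reductase, which reduces the double bond that Cyp51 leaves (ENSMUSG00000024799.14, chromosome 19, 6062821 to 6068373). It was the least abundant of the 9, at 12.1, 11.6 and 11.7 CPM in Mock. Auxin libraries measured 3.43, 3.33 and 3.02 CPM and those of Reintroduction 7.07, 7.01 and 6.85. All Reintroduction libraries lay between the other groups, above every Auxin library and below every Mock library. The log2 fold changes were -1.85 (SE 0.074, adjusted p = 2.62e-09) in Auxin against Mock, 1.10 (SE 0.075, adjusted p = 6.49e-07) in Reintroduction against Auxin and -0.76 (SE 0.071, adjusted p = 3.39e-06) in Reintroduction against Mock. Of its exon bases, 15.27% are shared with Vps51 on the same strand, and its RefSeq start lies inside the gene as the count files draw it.

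Lbr, the lamin B receptor of the inner nuclear membrane, has the same reductase activity as Tm7sf2 and was far more abundant. It had 36.5 ± 2.00 RPKM (CPM per kilobase of exon) in Mock, 27.5 ± 0.72 in Auxin and 34.0 ± 1.09 in Reintroduction (SD, n = 3 each), against 3.39 ± 0.08, 0.936 ± 0.061 and 2.00 ± 0.034 RPKM for Tm7sf2. The ratio of Lbr to Tm7sf2 per length was 10.8 ± 0.83 in Mock, 29.4 ± 1.98 in Auxin and 17.0 ± 0.69 in Reintroduction, and the ranges of the 3 groups did not overlap. With principal-transcript lengths the ratios were 6.17, 16.9 and 9.73, in the same order of groups. Lbr itself changed by -0.41 (SE 0.055, adjusted p = 3.82e-05) in Auxin against Mock and by 0.31 (SE 0.055, adjusted p = 7.04e-04) in Reintroduction against Auxin on the log2 scale. Against Mock its change after washout was -0.10 (SE 0.055, adjusted p = 0.127). Lbr shares 10.69% of its exon bases with other genes.

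The next 3 enzymes work in sequence to strip the C4 methyl groups. Msmo1, the methylsterol monooxygenase, oxidises the methyl group (ENSMUSG00000031604.10, chromosome 8, 64718139 to 64733792). It had 156, 149 and 148 CPM in Mock. Auxin replicates had 88.7, 97.1 and 86.0 CPM and those of Reintroduction 273, 295 and 287, the highest counts of the 9 in each group. The groups did not overlap. The log2 fold changes were -0.74 (SE 0.059, adjusted p = 4.89e-07) in Auxin against Mock, 1.65 (SE 0.060, adjusted p = 5.82e-09) in Reintroduction against Auxin and 0.91 (SE 0.059, adjusted p = 2.20e-07) in Reintroduction against Mock. With length and GC trends removed together, the last value was 0.59 (adjusted p = 1.98e-05).

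Nsdhl, the sterol dehydrogenase that removes the oxidised carbon, lies on the X chromosome (ENSMUSG00000031349.4, 72918557 to 72958514). Its values were 30.8, 28.9 and 31.9 CPM in Mock. Levels in Auxin were 13.0, 14.1 and 12.5 CPM and those of Reintroduction 32.6, 33.8 and 30.6. Auxin libraries were all lower than the rest, while Mock and Reintroduction overlapped. It fell by 1.21 on the log2 scale in Auxin against Mock (SE 0.068, adjusted p = 3.14e-08) and rose by 1.29 in Reintroduction against Auxin (SE 0.068, adjusted p = 8.94e-08). The difference of 0.08 between Reintroduction and Mock did not pass (SE 0.066, adjusted p = 0.291). It passed under total counts (0.21, adjusted p = 0.0112) and with the length trend removed (0.16, adjusted p = 0.0262).

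Hsd17b7 reduces the ketone that Nsdhl leaves (ENSMUSG00000026675.12, chromosome 1, 169949535 to 169969241). It had 29.7, 32.1 and 31.6 CPM in Mock. In Auxin it had 29.1, 27.5 and 27.3 CPM and those of Reintroduction 62.8, 68.0 and 70.1. Mock and Auxin were separated by less than 1 CPM at their nearest, and the Reintroduction libraries stood well above both. The fall in Auxin against Mock was 0.15 on the log2 scale (SE 0.060, adjusted p = 0.0373). That call was absent in 9 of 16 alternatives, among them the fits without Mock replicate 2 (-0.14, adjusted p = 0.0893), without Mock replicate 3 (-0.16, adjusted p = 0.0754) and without Auxin replicate 3 (-0.14, adjusted p = 0.102). Under total counts its direction turned (0.05, adjusted p = 0.450), and with the length trend removed it was -0.30 (adjusted p = 4.68e-04), so that the value in Auxin depends on the scaling. The rise of 1.26 in Reintroduction against Auxin (SE 0.061, adjusted p = 4.42e-08) and of 1.10 against Mock (SE 0.060, adjusted p = 7.20e-08) passed in every alternative run.

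Erg28, a scaffold protein that holds the C4 demethylation enzymes together, was lower in Auxin and higher after washout than in Auxin. It had 51.1 ± 1.11 CPM in Mock, 36.2 ± 3.12 in Auxin and 54.1 ± 2.73 in Reintroduction (SD, n = 3 each). Its log2 fold change was -0.50 (SE 0.068, adjusted p = 4.39e-05) in Auxin against Mock and 0.58 (SE 0.068, adjusted p = 3.53e-05) in Reintroduction against Auxin. Against Mock, the value of 0.08 in Reintroduction did not pass (SE 0.067, adjusted p = 0.297).

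The last enzymes shift and reduce the double bonds of the ring. Ebp, the sterol isomerase also known as emopamil binding protein, lies on the X chromosome (ENSMUSG00000031168.14, 8185329 to 8193512). It had 47.1, 42.1 and 44.3 CPM in Mock. The Auxin values were 22.2, 23.8 and 21.0 CPM and those of Reintroduction 31.9, 29.5 and 31.8. The Reintroduction libraries fell between the other groups with no overlap. The log2 fold changes were -0.99 (SE 0.067, adjusted p = 1.26e-07) in Auxin against Mock, 0.48 (SE 0.067, adjusted p = 1.33e-04) in Reintroduction against Auxin, the smallest rise of the 9, and -0.52 (SE 0.066, adjusted p = 3.83e-05) in Reintroduction against Mock. With length and GC trends removed together, the last value was -0.29 (adjusted p = 1.50e-04). Ebpl, a gene of related sequence named for Ebp, changed by -0.26 (SE 0.067, adjusted p = 4.24e-03) in Auxin against Mock and by 0.00 (SE 0.068, adjusted p = 0.973) in Reintroduction against Auxin.

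Sc5d, the sterol desaturase that inserts a double bond before the final reduction, changed little in Auxin and stood above Mock after washout (ENSMUSG00000032018.13, chromosome 9, 42254177 to 42264300). Its values were 42.9, 41.2 and 40.9 CPM in Mock. Auxin gave 34.3, 33.0 and 33.6 CPM and those of Reintroduction 59.1, 61.3 and 61.5. The groups did not overlap, and Reintroduction was the highest. The log2 fold changes were -0.31 (SE 0.049, adjusted p = 1.44e-04) in Auxin against Mock, 0.85 (SE 0.049, adjusted p = 1.69e-07) in Reintroduction against Auxin and 0.54 (SE 0.048, adjusted p = 2.48e-06) in Reintroduction against Mock. Under total counts the fall in Auxin was -0.10 and was no longer called (adjusted p = 0.0748), and with the length trend removed it was -0.13 (adjusted p = 0.0325).

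Dhcr7, the reductase that makes cholesterol from its direct precursor, showed the widest swing (ENSMUSG00000058454.15, chromosome 7, 143823145 to 143848410). It had 77.4, 72.8 and 72.3 CPM in Mock. In the Auxin libraries it had 15.7, 18.3 and 16.1 CPM and those of Reintroduction 58.4, 62.3 and 62.1. Every Auxin library was under 20 CPM, and every Reintroduction library lay below the lowest Mock library. The log2 fold changes were -2.15 (SE 0.069, adjusted p = 6.09e-10) in Auxin against Mock, 1.87 (SE 0.069, adjusted p = 6.38e-09) in Reintroduction against Auxin and -0.28 (SE 0.066, adjusted p = 2.59e-03) in Reintroduction against Mock. The last value was -0.51 with the length trend removed (adjusted p = 9.57e-05) and -0.15 under total counts (adjusted p = 0.0388).

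**Figure D3:**
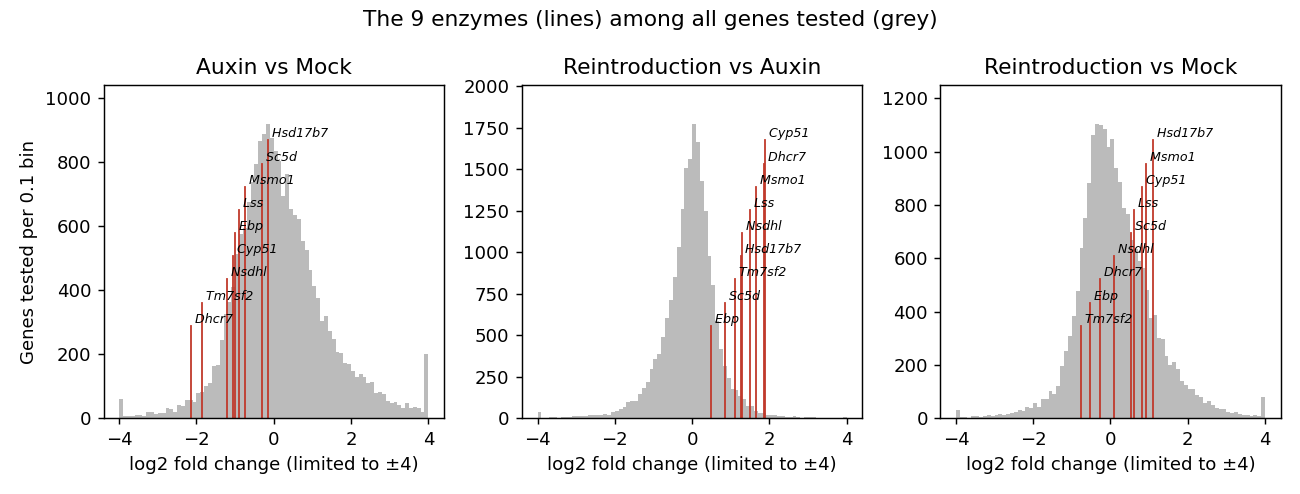
Histograms of the log2 fold change of all 20838 genes tested in each comparison (grey, genes per bin of 0.1 on the y axis, values beyond ±4 drawn at ±4), with the 9 enzymes as red lines whose heights carry no value. In Reintroduction against Auxin the 9 lines lie to the right of the peak of all genes, from 0.48 to 1.88, and in Reintroduction against Mock they lie on both sides of 0.

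Cyp51, Msmo1 and Sc5d draw electrons from partner proteins. Por, Cyb5b, Cyb5a and Cyb5r3 were all called lower in Auxin than in Mock. Of these, only Cyb5r3 was not called higher after washout than in Auxin. Por, the reductase that feeds cytochromes P450, had 59.2 ± 3.28 CPM in Mock, 45.1 ± 3.51 in Auxin and 57.9 ± 0.55 in Reintroduction (SD, n = 3 each). Its log2 fold change was -0.39 (SE 0.065, adjusted p = 2.11e-04) in Auxin against Mock and 0.36 (SE 0.065, adjusted p = 7.99e-04) in Reintroduction against Auxin. Cyb5b and Cyb5a, the cytochromes b5 that serve the sterol oxidases, fell by 0.97 (SE 0.059, adjusted p = 6.25e-08) and 1.32 (SE 0.064, adjusted p = 9.79e-09) in Auxin against Mock. They rose by 0.65 (SE 0.059, adjusted p = 5.01e-06) and 0.52 (SE 0.063, adjusted p = 5.05e-05) in Reintroduction against Auxin. Cyb5r3, which reduces cytochrome b5, fell by 0.79 in Auxin (SE 0.062, adjusted p = 4.24e-07), and its change of -0.02 after washout did not pass (SE 0.062, adjusted p = 0.850). Pgrmc1, a heme-binding partner of cytochromes P450, went the other way. It had 93.5 ± 4.41 CPM in Mock, 181 ± 7.41 in Auxin and 155 ± 2.45 in Reintroduction, a rise of 0.95 on the log2 scale in Auxin (SE 0.054, adjusted p = 3.22e-08). The 8 partner genes measured also include Lbr, Erg28 and Ebpl, described above. Of these 8, 7 were called lower and 1 higher in Auxin against Mock, beside 34.8% and 38.4% of all genes. After washout 5 rose and 1 fell relative to Auxin, beside 25.5% of all genes each way. Against Mock, 4 were called lower and 1 higher after washout, beside 33.4% and 34.7% of all genes. The median log2 fold changes of the 8 were -0.45, 0.34 and -0.18, beside 0.05, 0.003 and 0.026 for all genes tested. Faxdc2 was listed as a partner but is not analysed here.

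Per length of exon, the levels of the 9 enzymes kept neither the same order nor the same spacing across the groups. In Mock, Msmo1 (24.6 ± 0.71 RPKM) and Cyp51 (23.0 ± 0.91) were highest, followed by Ebp (19.3 ± 1.07), Sc5d (17.9 ± 0.46), Dhcr7 (12.8 ± 0.48) and Nsdhl (10.7 ± 0.53). Hsd17b7 (6.10 ± 0.26), Lss (5.94 ± 0.07) and Tm7sf2 (3.39 ± 0.08) were lowest (SD, n = 3 each). The ranges of Ebp and Sc5d overlapped, as did those of Hsd17b7 and Lss. In Auxin the order was Msmo1 (14.8 ± 0.94), Sc5d (14.5 ± 0.28), Cyp51 (11.0 ± 0.81), Ebp (9.66 ± 0.61), Hsd17b7 (5.48 ± 0.19), Nsdhl (4.63 ± 0.29), Lss (3.17 ± 0.09), Dhcr7 (2.87 ± 0.24) and Tm7sf2 (0.936 ± 0.061). Dhcr7 thus went from the fifth place to the eighth, and its range overlapped that of Lss. Msmo1 overlapped Sc5d, and Cyp51 overlapped Ebp. In Reintroduction, Msmo1 (46.4 ± 1.77) and Cyp51 (40.6 ± 1.27) were again highest, with Sc5d (26.0 ± 0.56) next. Ebp (13.5 ± 0.60), Hsd17b7 (13.1 ± 0.74), Nsdhl (11.3 ± 0.56), Dhcr7 (10.5 ± 0.38) and Lss (9.02 ± 0.23) followed in close order, and Tm7sf2 (2.00 ± 0.034) was lowest. There Ebp overlapped Hsd17b7, and the lowest Nsdhl library met the highest Dhcr7 library. The exon length in the count files counts every exon base of the authors' annotation for a gene. With the length of the principal transcript in its place, the Mock levels were 74.0 RPKM for Msmo1, 26.4 for Dhcr7, 25.9 for Cyp51, 25.5 for Ebp, 14.1 for Nsdhl, 13.7 for Lss, 8.70 for Sc5d, 8.02 for Tm7sf2 and 6.75 for Hsd17b7. For Sc5d that transcript has 4787 bases in GENCODE M21, more than its 2328 exon bases in the count files. Its value of 8.70 thus divides by bases in which reads were not counted. The order between genes therefore depends on the length used, while the ratio of RPKM of 1 gene between groups does not. Fits with the exon length trend removed do use the exon length of the count files. In them the log2 fold change of Lss in Reintroduction against Mock went from 0.60 to 0.04.

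Across the 9 libraries, which fall into the 3 groups, the enzymes shared most of their pattern with exceptions. The Pearson correlation of log2 CPM with the mean of the 9 standardised profiles was highest for Lss (0.984), Nsdhl (0.981) and Cyp51 (0.975) and lowest for Tm7sf2 (0.796), Hsd17b7 (0.759) and Ebp (0.709). Each profile is itself part of that mean. The lowest correlation between a pair was 0.083, between Ebp and Hsd17b7. Hsd17b7 was nearly level between Mock and Auxin and rose after washout, while Ebp fell in Auxin and regained part of its level. Among 15921 other genes with at least 1 CPM in their highest group, the nearest to the mean profile were Noct (r = 0.999), a deadenylase-family protein named nocturnin, the pseudogene Gm6210 (0.998), the heat shock cognate gene Hspa8 (0.998) and Wdr1 (0.998), an actin-binding protein. These correlations describe 9 libraries in 3 groups and share the same library scaling. Hspa8 had 1870 CPM in Mock, 598 in Auxin and 2530 in Reintroduction on average, and Noct had 43.6, 24.4 and 51.6. Gm6210 is annotated as a processed pseudogene, so its reads may belong to a near-identical gene.

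The steps before Lss were followed as a list. Of 10 genes from acetyl-CoA to squalene epoxide, 10 were called lower in Auxin against Mock and 10 higher in Reintroduction against Auxin, beside 34.8% and 25.5% of all genes. Their medians were -1.48 and 1.62 on the log2 scale, beside 0.05 and 0.003 for all genes. Against Mock, 6 were called higher and 1 lower after washout (median 0.40), beside 34.7% and 33.4% of all genes. Idi1, isopentenyl diphosphate isomerase, changed by -2.46, 2.90 and 0.44 in Auxin against Mock, Reintroduction against Auxin and Reintroduction against Mock (adjusted p = 7.80e-11, 1.10e-10 and 1.09e-05). Hmgcs1, the synthase before the committed reductase, changed by -1.35, 2.53 and 1.18 in the same order (adjusted p = 1.95e-09, 2.07e-10 and 1.59e-08).

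Of the 7 genes of the SREBP machinery, 3 were called lower in Auxin than in Mock and 3 higher (median 0.07), near the 34.8% and 38.4% of all genes and their median of 0.05. Relative to Auxin, Reintroduction had 4 higher and 1 lower (median 0.25), beside 25.5% of all genes in each direction. Insig1, which retains SREBP in the endoplasmic reticulum and is itself an SREBP target, changed by -2.24 and 2.62 (adjusted p = 1.17e-10 and 1.61e-10). Srebf1 changed by -1.11 and 0.75 (adjusted p = 6.07e-09 and 5.07e-07). Relative to Mock 5 of the 7 stood higher after washout and 1 lower (median 0.32), beside 34.7% and 33.4% of all genes and their median of 0.026. There Insig1 was at 0.38 (adjusted p = 4.61e-05) and Srebf1 at -0.36 (adjusted p = 7.21e-05).

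Genes of liver X receptors and cholesterol efflux, which respond to sterol excess, were a list of 5. Relative to Mock, 4 were called higher in Auxin and 1 lower (median 1.18), beside 38.4% and 34.8% of all genes and their median of 0.05. Abca1 and Abcg1, the exporters of cholesterol, rose by 2.92 and 1.18 (adjusted p = 1.18e-08 and 1.38e-07). After washout 3 were lower than in Auxin and 1 was higher (median -0.72), beside 25.5% of all genes each way. These exporters fell by 1.67 and 1.00 (adjusted p = 2.42e-06 and 2.14e-06). Abca1 was still higher than in Mock by 1.24 (adjusted p = 1.32e-05), and Abcg1 at 0.18 did not pass (adjusted p = 0.0713). Of the 5 genes, 3 stood above Mock and 1 below it after washout (median 0.39), beside 34.7% and 33.4% of all genes.

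Fatty acid synthesis is also driven by SREBP factors. Of 8 genes, 6 were called lower and 1 higher in Auxin against Mock (median -0.95), beside 34.8% and 38.4% of all genes and their median of 0.05. Relative to Auxin, 7 were called higher after washout (median 0.98), beside 25.5% and a median of 0.003. Scd2, a fatty acid desaturase, changed by -2.15 and 2.28 (adjusted p = 1.95e-10 and 6.33e-10). Fasn, fatty acid synthase, changed by -1.75 and 1.38 (adjusted p = 5.72e-10 and 1.12e-08). Against Mock 4 were called higher and 2 lower after washout (median 0.21), near the 34.7% and 33.4% of all genes. Fasn was at -0.37 (adjusted p = 1.00e-04), while Scd2 at 0.12 did not pass (adjusted p = 0.0634).

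**Figure D4:**
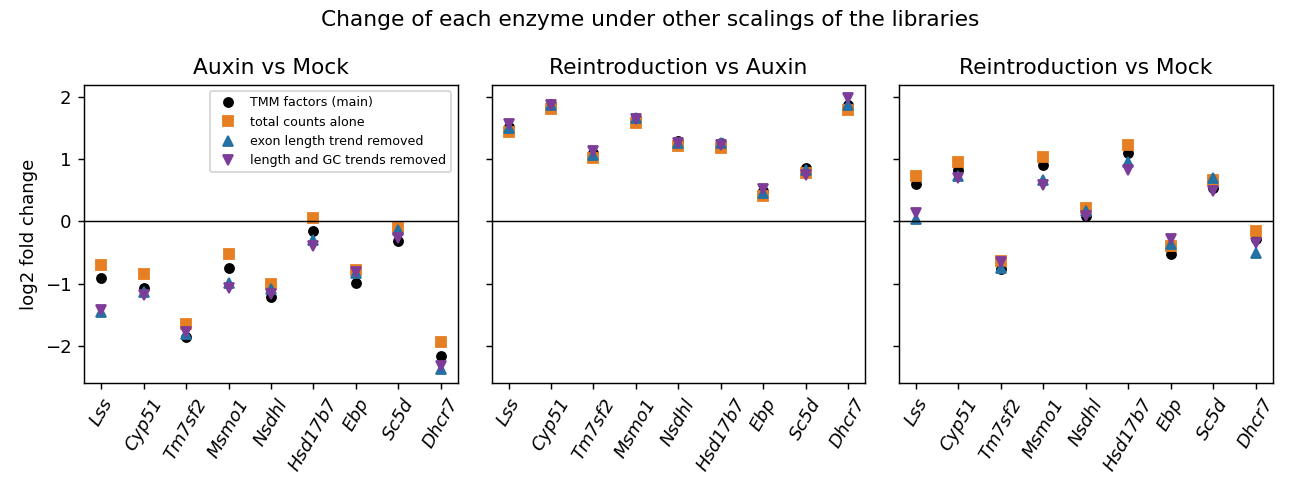
Log2 fold change of each enzyme (x axis, in pathway order) in the 3 comparisons under 4 scalings: TMM factors as used in the text, total counts alone, and TMM with the per-library trend of exon length, or of length and GC content, removed. In Reintroduction against Auxin the 4 values of each enzyme nearly coincide, in Auxin against Mock Hsd17b7 crosses 0 under total counts (0.05), and in Reintroduction against Mock Lss drops to 0.04 with the length trend removed.

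The scalings bore unequally on the comparisons, as the plot of values under 4 scalings shows. In Reintroduction against Auxin every enzyme stayed called and its value varied little over 16 alternatives, for example from 1.80 to 1.92 for Cyp51 and from 0.40 to 0.52 for Ebp. In Auxin against Mock, Dhcr7 ranged from -2.37 to -1.94 and Tm7sf2 from -1.90 to -1.64. The ranges were wider for Msmo1 (-1.06 to -0.53) and Lss (-1.45 to -0.70), and Hsd17b7 ran from -0.39 to 0.05. In Reintroduction against Mock, Tm7sf2, Ebp and Dhcr7 were called lower, and Cyp51, Msmo1, Hsd17b7 and Sc5d higher, in all 16 alternatives, while Lss and Nsdhl changed their call as given above.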

How the data were processed

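Per the file headers, the authors summed reads to raw counts per gene with featureCounts 2.0.6 over exons of an mm10 annotation, in paired-end mode without strand and with mates counted singly. The submitters' processing notes also name Trim Galore 0.6.10, FastQC 0.12.1, Bowtie2 2.5.3 and SAMtools 1.20, with no role given. The aligner behind the counts is not given in the sources used here. In each library, of low-count genes, more held even counts from 2 to 10 than odd counts from 1 to 9, as counting of both mates would give, so fits on halved counts were run as an alternative.

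Symbols were matched on the unversioned identifier (48058 of 48440 genes). Genes passing filterByExpr (20838) entered 1 edgeR 4.0.16 quasi-likelihood fit of all 9 libraries (R 4.3.3) with TMM factors (0.905 to 1.08) and group as the only term. The common biological coefficient of variation was 9.15%. P-values are two-sided, Benjamini-Hochberg adjusted over all genes tested, and genes are called under 0.05. Standard errors derive from the F statistic. CPM uses TMM-scaled totals, and RPKM divides CPM by exon length. Trends of exon length and GC content (GENCODE M21, the same build) were fitted per library with splines of 5 degrees of freedom and removed as offsets. The fits were also run on simulated counts, in which equal numbers of genes were raised and lowered and libraries had no length trend. Those runs cannot show how the fits act where, as here, the groups differ in that trend. Alternatives were DESeq2 1.42.0, total-count scaling, other filters, the replicate block, the fit of 2 groups and leaving out each library, and also the principal-transcript length for RPKM and its ratios, chosen after seeing the data.

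The members and gene lists were chosen with earlier results of these data known. Named genes are the 9 members, all measured partners, the 2 genes of each context list with the smallest p-value in Auxin against Mock, and the 5 genes most like the mean profile, of which 1 is not reported here.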

Additional observations from a re-analysis of the deposited data

How the results depend on the processing

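Over 16 alternatives for each of 9 enzymes in 3 comparisons, 419 of 432 values kept their direction and their side of the threshold, 10 lost the call in the same direction, 2 gained it and 1 reversed without a call. In Reintroduction against Auxin all 144 were kept. The reversed value was Hsd17b7 in Auxin against Mock under total counts (0.05). Hsd17b7 also lost its call there with no filter (-0.16), with at least 1 CPM in 3 libraries (-0.08), with halved counts (-0.12) and in the fit of the 2 groups (-0.12), beside the fits without a library named above. The cause was not tested. With the replicate number as a block, 8 of the 9 enzymes were called lower in Auxin against Mock in place of 9, Hsd17b7 being lost (-0.15, adjusted p = 0.0663), and all genes gave 7734 higher and 7074 lower calls. The block changed no other call of the enzymes. Deviations of same-numbered libraries from their group means correlated at -0.172 to 0.055, and not every library correlated best with its own number. No pairing by number was seen. With 3 libraries per group, this cannot settle whether same-numbered samples were handled together. No sequencing batch is given in the labels. At 207 counts and above, depth did not keep any of the 9 from being tested.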
